A study of Mus musculus with 3 samples.

Results

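Single exon skipping events are places in a gene where one internal exon is kept in some transcripts and left out of others. They were examined in mouse embryonic stem (ES) cells with and without Pcgf1, a subunit of the variant Polycomb complex PRC1.1. The deposited event lists give, for each such exon, FPKM values (fragments per kilobase of transcript, scaled to the mapped fragments of the library) of the transcripts that contain it, called SKIP_ON, and of those that lack it, called SKIP_OFF. Events of both names, also where a leading X marks inexact exon ends, were matched between samples by gene name and coordinates. The lists held 36248 such rows of 156133 rows of all types in wildtype, 36242 of 155552 in Pcgf1KO and 36462 of 156379 in Pcgf1KO+ Pcgf1_flag. These rows described 15222, 15219 and 15308 events, of which 13907 were listed in all 3 samples and 16928 in at least 1.

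Inclusion was taken as the ON FPKM divided by the sum of ON and OFF FPKM, in percent, and that sum is called the total FPKM of the event below. Of the 13907 events, 3310 had 0 FPKM for both forms in every sample and a further 3370 had a total FPKM under 1 in at least 1 sample. The remaining 7227 events, in 3978 gene names, could be evaluated. An event was counted as different between a pair of samples where its inclusion differed by more than 20 percentage points.

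The study compared 3 cultures, with 1 RNA sample each. The wildtype was a C57BL/6 ES cell line grown on mitomycin C-treated mouse embryonic fibroblasts with LIF. Pcgf1KO was a line grown from a single colony after Cas9 and a pair of guide RNAs had removed exons 2 and 3 of Pcgf1. Pcgf1KO+ Pcgf1_flag was, by its label and the study's methods, the same knockout line infected with a lentivirus that carries a FLAG-tagged Pcgf1 cDNA. With 1 sample per genotype no difference has a replicate check and no test was run, and all 3 comparisons share samples with one another.

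The samples were checked first. Pcgf1 had an FPKM of 13.95 in wildtype, 5.88 in Pcgf1KO and 7.86 in Pcgf1KO+ Pcgf1_flag. Joining of exon 1 to exon 4, which leaves out exons 2 and 3 (chr6:83078895-83079268, mm10), was listed in Pcgf1KO with 5.88 FPKM and in neither other sample, so the event lists themselves do not show the deletion in Pcgf1KO+ Pcgf1_flag. Of 10 ES cell marker genes 8 were measured, none at 0, with summed FPKM of 2506, 2567 and 2152 in wildtype, Pcgf1KO and Pcgf1KO+ Pcgf1_flag. Of 18 fibroblast markers 14 were measured, with sums of 134, 88.0 and 99.7 FPKM in the same order (23.4, 12.3 and 24.8 without Fn1, which made up most of them) and with 1, 2 and 1 of them at 0. The number of reads per library is not in the files, so the depth behind the values is unknown.

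During splicing an exon is kept when the spliceosome recognises the splice sites at both of its ends, and skipped when the sites of its neighbours are joined instead. SR proteins generally favour recognition of an exon, and hnRNP proteins such as Ptbp1 often oppose it. Skipping an exon whose length is a multiple of 3 keeps the reading frame, while other lengths shift it and often lead to nonsense-mediated decay of the transcript.

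The exons on which the results turn are shown with 15 bases of the neighbouring exons on either side, 5′ to 3′ on the transcribed strand, from GENCODE vM21 transcripts (mm10). Capitals mark the skipped exon. The first set shows coding exons among those with the widest differences between Pcgf1KO and wildtype: Ctnnd1 (chr2:84612532-84612549, minus strand), Adgrl1 (chr8:83926262-83926276, plus strand), Ncor1 (chr11:62403436-62403462, minus strand) and Anapc1 (chr2:128680109-128680209, minus strand).
Ctnnd1: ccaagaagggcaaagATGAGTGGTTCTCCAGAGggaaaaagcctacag
Adgrl1: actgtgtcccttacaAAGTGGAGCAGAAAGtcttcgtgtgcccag
Ncor1: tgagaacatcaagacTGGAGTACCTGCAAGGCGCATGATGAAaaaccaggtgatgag
Anapc1: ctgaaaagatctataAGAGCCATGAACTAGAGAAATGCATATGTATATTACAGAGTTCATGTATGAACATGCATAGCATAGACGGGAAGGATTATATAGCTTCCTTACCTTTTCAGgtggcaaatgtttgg

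Next come exons of regulators, shown because their genes control splicing, Wnt-responsive transcription or Polycomb complexes: Clk1 (chr1:58420121-58420211, minus strand), Clk4 (chr11:51273078-51273168, plus strand), Ptbp1 (chr10:79860117-79860194, plus strand), Tcf7l1 (chr6:72648801-72648842, minus strand), Tcf7l2 (chr19:55924530-55924580, plus strand), Bcor (chrX:12055639-12055692, minus strand) and Auts2 (chr5:131470414-131470458, minus strand). The Clk1 and Clk4 exons both have 91 bases and are identical at 85 of them (93.4%).
Clk1: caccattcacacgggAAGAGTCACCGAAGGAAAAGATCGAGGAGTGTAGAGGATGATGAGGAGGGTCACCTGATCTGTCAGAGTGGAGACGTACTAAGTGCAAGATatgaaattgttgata
Clk4: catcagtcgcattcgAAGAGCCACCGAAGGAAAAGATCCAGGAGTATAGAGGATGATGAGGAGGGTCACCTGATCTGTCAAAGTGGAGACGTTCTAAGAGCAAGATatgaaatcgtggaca
Ptbp1: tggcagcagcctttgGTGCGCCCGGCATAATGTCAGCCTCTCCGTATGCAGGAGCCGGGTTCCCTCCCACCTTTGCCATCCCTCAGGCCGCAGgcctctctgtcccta
Tcf7l1: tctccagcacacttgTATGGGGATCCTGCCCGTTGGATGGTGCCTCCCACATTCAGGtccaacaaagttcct
Tcf7l2: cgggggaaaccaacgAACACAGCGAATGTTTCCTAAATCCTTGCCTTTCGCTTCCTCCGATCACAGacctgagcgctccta
Bcor: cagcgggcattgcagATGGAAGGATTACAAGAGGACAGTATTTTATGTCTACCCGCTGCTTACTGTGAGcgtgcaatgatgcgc
Auts2: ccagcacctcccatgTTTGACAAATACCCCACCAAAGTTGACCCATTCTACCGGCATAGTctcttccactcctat

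The last set shows microexons, here exons of 3 to 27 bases, whose inclusion hardly differed between the samples: Ap2m1 (chr16:20540808-20540813, plus strand), Ap1g1 (chr8:109830613-109830621, plus strand), Anxa6 (chr11:54987051-54987068, minus strand), Trappc13 (chr13:104152165-104152182, minus strand) and Tmed2 (chr5:124543487-124543507, plus strand). All 5 lengths are multiples of 3.
Ap2m1: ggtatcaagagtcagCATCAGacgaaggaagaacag
Ap1g1: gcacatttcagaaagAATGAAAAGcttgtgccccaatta
Anxa6: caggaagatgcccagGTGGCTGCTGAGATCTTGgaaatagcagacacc
Trappc13: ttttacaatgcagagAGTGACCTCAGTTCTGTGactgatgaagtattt
Tmed2: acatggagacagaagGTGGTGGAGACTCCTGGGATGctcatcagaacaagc

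Most single exons had an inclusion of exactly 0% or 100%, which means that the other form was given 0 FPKM in that sample. In wildtype, 45.8% of the 7227 events had an inclusion of exactly 100% and 33.8% one of exactly 0%. The corresponding shares were 45.5% and 33.6% in Pcgf1KO and 46.0% and 34.0% in Pcgf1KO+ Pcgf1_flag. Inclusion lay between these ends for 1471, 1514 and 1445 events. Values close to an end were nearly absent: 8, 13 and 12 events lay above 0% and up to 10%, and 4, 9 and 6 lay from 90% to below 100%. Cufflinks discards isoforms far below the main isoform of a gene, so these counts cannot be read as a property of the exons alone. Across the samples, 2966 exons (41.0%) were at 100% in all 3, 2172 (30.1%) were at 0% in all 3 and 940 (13.01%) were between in all 3. Of the other 1149 (15.9%), 1130 were at an end in some samples and between in others, and 19 were at an end in every sample but not at the same one.

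**Figure D1:**
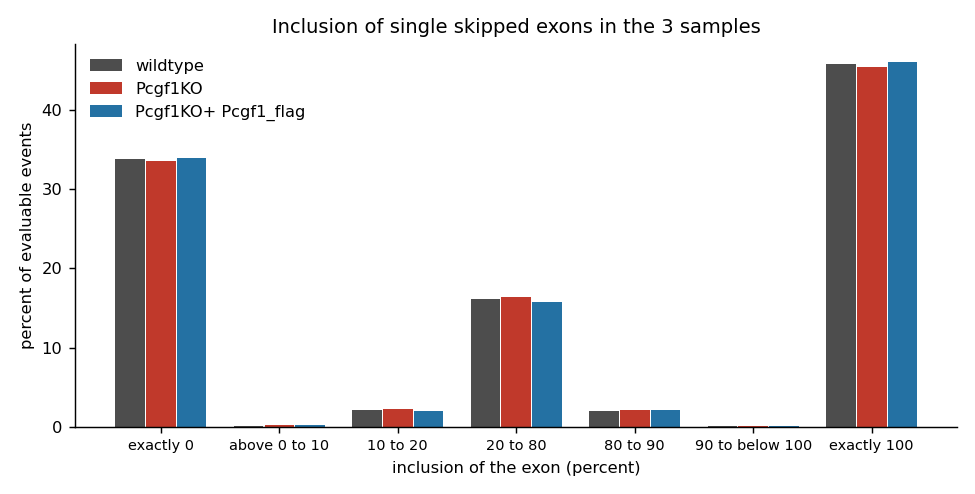
Bars give the percent of the 7227 evaluable events (y axis) in each range of exon inclusion in percent (x axis) for wildtype, Pcgf1KO and Pcgf1KO+ Pcgf1_flag, 1 sample each. The bars at exactly 0% (33.8%, 33.6% and 34.0%) and at exactly 100% (45.8%, 45.5% and 46.0%) are far taller than those between.

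Exons at 100% in all 3 samples differed from the others in frame and in annotation. The minimum FPKM used neither, but 7198 of the 7227 exons match annotated exons exactly. Which exons were listed may therefore itself depend on annotation, and this was not tested. Of exons at 100% in all 3 samples 91.1% were coding over their whole length, against 71.6% of those between in all 3 and 26.1% of those at 0% in all 3. Among fully coding exons only, 2701 were at 100% in all 3 samples, 673 were between in all 3 and 567 were at 0% in all 3. A length that is a multiple of 3 was found in 43.5%, 76.5% and 82.4% of them. Their median lengths were 113, 90 and 57 bases.

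Base composition differed little among these 3 classes of coding exon, with a median GC content of 50.5%, 50.9% and 50.5%. The last base of the exon, which pairs with U1 snRNA as part of the 5′ splice site, was G in 80.04%, 77.7% and 74.3%. The first base was G in 49.7%, 41.6% and 32.6%.

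Mean inclusion differed by at most 1.13 points between the samples in each of the exon classes plotted, and by 5.68 points in the 29 exons not found in vM21. The 4703 fully coding exons had a mean inclusion of 75.1% in wildtype. The 753 untranslated exons of coding transcripts had one of 26.5%, and the 749 exons found only in transcripts annotated as targets of nonsense-mediated decay had one of 5.53%, with 87.0% of them at 0%. Coding exons whose length is a multiple of 3 (2650) had a mean of 64.4% and the other 2053 coding exons one of 89.0%. By length, the mean in wildtype was 22.5% for the 325 exons of 3 to 27 bases, 41.1% for the 686 of 28 to 51 bases, 59.2% for the 5520 of 52 to 200 bases and 61.5% for the 694 longer ones. The shortest exons were thus the least included, and 78.5% of them had a length divisible by 3, against 45.2% of exons of 52 to 200 bases.

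**Figure D2:**
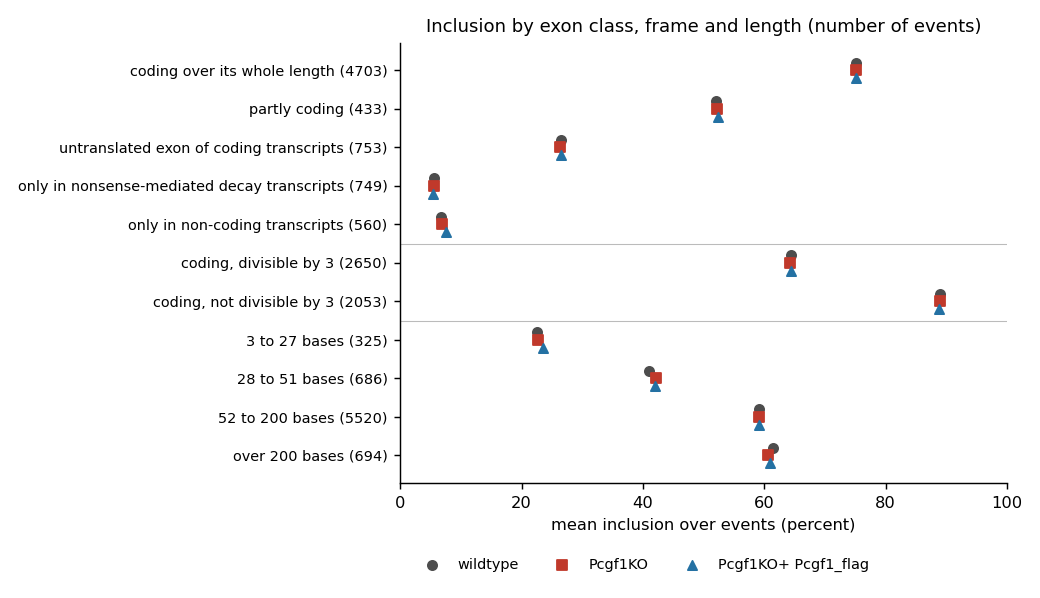
Points give the mean inclusion in percent (x axis) over the events of each exon class (y axis, number of events in brackets) in the 3 samples, without error bars since each genotype has 1 sample. Coding exons with a length not divisible by 3 have the highest mean (89.0% in wildtype) and exons found only in decay transcripts the lowest (5.53%).

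Between Pcgf1KO and wildtype, inclusion was higher in the knockout by more than 20 points for 342 exons (4.73% of 7227) and lower for 349 (4.83%), together 691 (9.56%). The exons belonged to 606 gene names, 73 of which had more than 1. In 519 of the 691, at least 1 sample of the pair stood at exactly 0% or 100%, and 14 went from one end to the other. For 5340 events inclusion was equal in both samples, which says nothing of direction. The 940 events between the ends in all 3 samples showed no shift to one side, with a median difference of -0.36 points. Their median absolute difference was 7.38 points. Of these 940, 69 were higher and 82 lower by more than 20 points.

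The limit lies in a dense range of values. The exon nearest above it was in Sycp1, with a difference of 20.03 points, and the nearest below it was in Syne2, with 19.99 points. The share of events past the limit was 16.4% at a mean total FPKM of 1 to 5, 8.52% at 5 to 20, 5.42% at 20 to 100 and 3.31% at 100 or more. Total FPKM differed more than 2-fold between Pcgf1KO and wildtype in 11.4% of the events past the limit and in 4.90% of all events. For the genes named next a total FPKM of at least 5 in every sample was required, which 4767 events met, 311 of them (6.52%) past the limit.

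Among the exons lower in Pcgf1KO, the widest difference was in Edc3, an activator of mRNA decapping, at an untranslated exon of 96 bases (chr9:57712380-57712475). Its inclusion was 78.4% in wildtype, 0% in Pcgf1KO and 79.8% in Pcgf1KO+ Pcgf1_flag, at a total FPKM of 20.3, 15.6 and 17.0. The knockout sample stood alone at 0% there, and the same held for the coding exon of 120 bases in Mettl16, an RNA adenosine methyltransferase, with 74.5%, 0% and 72.0% at 22.0, 26.3 and 27.6 FPKM. An untranslated exon of 54 bases in Zc3h11a, a zinc finger protein of mRNA export, had 61.5%, 0% and 53.1%. Rnf34, a ubiquitin ligase, kept an exon of 219 bases at 100% in wildtype and Pcgf1KO+ Pcgf1_flag and at 29.4% in Pcgf1KO. The total FPKM of that event was 5.39, 10.03 and 23.97 in wildtype, Pcgf1KO+ Pcgf1_flag and Pcgf1KO, so the sample with the lowest inclusion had the highest total.

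In other genes Pcgf1KO+ Pcgf1_flag lay between the other two or beside the knockout. The 18-base exon of Ctnnd1, a catenin that binds the tail of cadherins and whose locus is also named Gm28635, was at 100% in wildtype, 37.3% in Pcgf1KO and 54.5% in Pcgf1KO+ Pcgf1_flag, with 23.2, 65.5 and 32.8 FPKM. At a 63-base exon of Ctnnd1 the totals were 59.3, 65.5 and 53.6 FPKM. The 18-base event thus took in only part of the Ctnnd1 FPKM in wildtype and Pcgf1KO+ Pcgf1_flag, and its 100% does not cover the rest. The coding exon of 66 bases in 0610037L13Rik (chr4:107894873-107894938) was at 100%, 22.4% and 37.8%, on 12.9, 35.5 and 26.2 FPKM. Lincenc1, a long non-coding RNA, had an exon of 575 bases, absent from vM21 with these ends, at 100%, 24.9% and 54.02%. Its total was 21.4, 37.5 and 28.6 FPKM. In all 3 of these the wildtype sample alone was at 100%, and it had the lowest total FPKM.

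Exons of Polr1a, the largest subunit of RNA polymerase I, and of the adaptor Sh3d19 were at 0% in both Pcgf1KO and Pcgf1KO+ Pcgf1_flag. The Polr1a exon (72 bases, known only from decay transcripts) had 59.7% in wildtype and the Sh3d19 exon (40 bases, non-coding transcripts only) 60.1%. Nav2, a cytoskeletal protein of growing neurites, had a coding exon of 453 bases at 78.7%, 22.3% and 67.7%, and the junction that skips it is not in vM21.

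Among the exons higher in Pcgf1KO, each form of an exon taken by itself, the widest difference was at an untranslated exon of the locus of Cpne1, a copine, and Rbm12. In its form of 49 bases it had 26.4% in wildtype, 100% in Pcgf1KO and 36.2% in Pcgf1KO+ Pcgf1_flag, at 18.1, 5.47 and 12.2 FPKM, and in its form of 81 bases 44.1%, 100% and 57.2%. Both forms share an end and the same OFF FPKM (13.3, 0 and 7.77), so they are not independent, and several genes share the locus. The ON FPKM was 4.78, 5.47 and 4.40 for the form of 49 bases and 10.5, 14.0 and 10.4 for that of 81. Each inclusion leaves out the ON FPKM of the other form. In wildtype and Pcgf1KO+ Pcgf1_flag it is thus below the inclusion of both forms together, and the difference from Pcgf1KO is overstated. A coding exon of 255 bases in Glmp, a lysosomal membrane protein, had 33.9%, 100% and 26.2%, at 25.2, 7.502 and 23.6 FPKM. In these 3 events the knockout had the highest inclusion and the lowest total FPKM.

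A pair of genes had exons with an inclusion above 0% in the knockout sample only. The 15-base exon of Adgrl1, an adhesion receptor also called latrophilin, was at 0% in wildtype, 69.1% in Pcgf1KO and 0% in Pcgf1KO+ Pcgf1_flag, at 12.8, 10.6 and 5.61 FPKM. At an 18-base exon of Adgrl1 the total was 12.9 FPKM in Pcgf1KO+ Pcgf1_flag, so the 15-base event took in only part of the Adgrl1 FPKM there. Ncor1, a corepressor of nuclear receptors that recruits histone deacetylase, had exons of 27 and 174 bases that were both at 0%, 54.04% and 0%. In Pcgf1KO both Ncor1 events had the same ON and OFF FPKM (14.9 and 12.7, with a total of 27.6), so they are not independent. Totals in wildtype and Pcgf1KO+ Pcgf1_flag were 17.3 and 20.3 FPKM for the 27-base event, against 31.1 and 42.1 for the 174-base event. The 27-base event thus took in only part of the Ncor1 FPKM in these samples, and its 0% does not cover the rest.

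In the remaining events Pcgf1KO and Pcgf1KO+ Pcgf1_flag both stood apart from wildtype. Psma3, a proteasome subunit, had an exon of 107 bases known only from decay transcripts at 26.8% in wildtype and 100% in both other samples, and its total FPKM was 111, 37.4 and 31.3. Its ON FPKM was 29.9, 37.4 and 31.3 and its OFF FPKM 81.6, 0 and 0. The higher inclusion thus came with a missing OFF form and little difference in ON FPKM. The exon of Anapc1, a subunit of the anaphase-promoting complex, was at 35.7% in wildtype and 100% in both others, with totals of 18.9, 17.8 and 16.2 FPKM that differed little. Vps36, of the endosomal sorting machinery, had a coding exon of 69 bases at 33.9%, 100% and 100%, with an ON FPKM of 9.41, 12.6 and 11.3 and an OFF FPKM of 18.3, 0 and 0. An untranslated exon of 66 bases in the scaffold gene Mpp6 was at 0%, 58.5% and 57.3%.

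**Figure D3:**
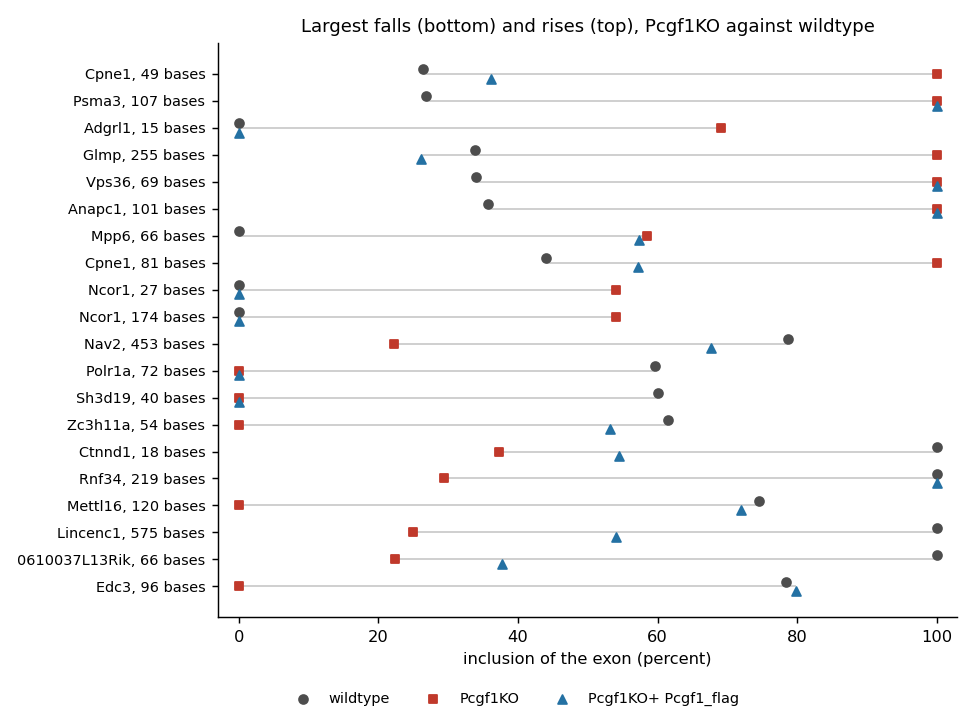
Inclusion in percent (x axis) of the 10 exons with the widest fall (lower rows) and the 10 with the widest rise (upper rows) between wildtype and Pcgf1KO, among events with a total FPKM of at least 5 in every sample, each row being 1 exon (gene and length) and each point 1 sample. Edc3, in the lowest row, goes from 78.4% in wildtype to 0% in Pcgf1KO, and Adgrl1 from 0% to 69.1%. The exons were chosen by the difference shown.

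Between Pcgf1KO+ Pcgf1_flag and Pcgf1KO, 370 exons (5.12%) were higher in the line with the cDNA and 314 (4.34%) lower, together 684 (9.46%). Against wildtype, 368 (5.09%) were higher and 352 (4.87%) lower in Pcgf1KO+ Pcgf1_flag, together 720 (9.96%). The number of exons past the limit was therefore alike in the 3 comparisons, and with a total FPKM of at least 5 it was 311, 313 (6.57%) and 315 (6.61%). For the 940 events between the ends in all 3 samples the median absolute difference was 7.18 points against Pcgf1KO and 7.13 points against wildtype.

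The widest differences of Pcgf1KO+ Pcgf1_flag from both other samples ran from one end to the other. A partly coding exon of 37 bases in Atxn2l, which encodes a stress granule protein, was at 0% in wildtype and Pcgf1KO and at 100% in Pcgf1KO+ Pcgf1_flag. Exons of Eef1b2 (translation elongation), Huwe1 (a ubiquitin ligase), Tnip1 (an inhibitor of NF-κB signalling) and Tsr2 (ribosome biogenesis) were at 100%, 100% and 0%. The Eef1b2 exon, known only from decay transcripts, had the highest total of these, with 483, 456 and 437 FPKM, and the others had 6.40 to 18.8 FPKM.

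A 26-base exon of Srpk2, a kinase of SR proteins, was at 38.3% in wildtype, 36.8% in Pcgf1KO and 100% in Pcgf1KO+ Pcgf1_flag. Adar, an RNA-editing enzyme, had an exon of 1432 bases at 55.9%, 100% and 0%, on 8.94, 5.54 and 5.21 FPKM. An untranslated exon of 136 bases in Eif4e, the cap-binding initiation factor, was at 71.7%, 52.5% and 0%, and a 9-base exon of Macf1, which links microtubules and actin, was at 33.4%, 48.9% and 100%.

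The share of exons past the limit varied with level more than with length. In all 3 comparisons it was highest at 1 to 5 FPKM (16.4%, 15.4% and 17.1%) and lowest at 100 FPKM or more (3.31%, 2.76% and 3.31%). For microexons it was 9.54% for Pcgf1KO against wildtype, with 15 higher and 16 lower, 11.7% for Pcgf1KO+ Pcgf1_flag against Pcgf1KO and 15.1% against wildtype. Exons with a length divisible by 3 passed the limit between Pcgf1KO and wildtype in 11.1% of cases and others in 8.16%. The 92 exons whose skipping junction is not in vM21 did so in 30.4%, and the untranslated exons in 14.1%.

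**Figure D4:**
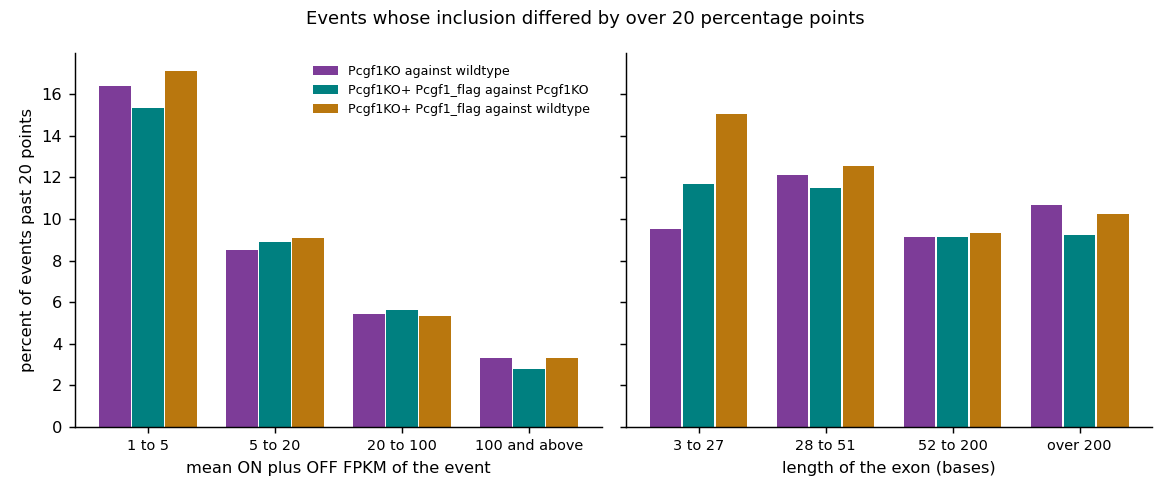
Bars give the percent of events whose inclusion differed by more than 20 points (y axis) in each of the 3 comparisons, by mean total FPKM of the event (left) and by exon length in bases (right). For Pcgf1KO against wildtype the share falls from 16.4% at 1 to 5 FPKM to 3.31% at 100 FPKM or more.

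Of 57 genes of Polycomb complexes 27 had an event that could be evaluated, 57 events in all. One of the events (1.75%, against 9.56% of all events) was past the limit between Pcgf1KO and wildtype. This was the 45-base exon of Auts2, which encodes a subunit of a variant PRC1 complex in neurons, at 0% in wildtype, 62.3% in Pcgf1KO and 43.1% in Pcgf1KO+ Pcgf1_flag, on 4.20, 3.85 and 3.59 FPKM. Both of the latter samples were higher than wildtype there. In each of the other comparisons 7.02% of the 57 events were past the limit. Over all events the share was 9.46% for Pcgf1KO+ Pcgf1_flag against Pcgf1KO and 9.96% against wildtype. The 54-base exon of Bcor, the scaffold of PRC1.1, was at 86.3%, 100% and 73.7%, within the limit against wildtype in both lines but past it between them. Kdm2b, the PRC1.1 subunit that binds unmethylated CpG islands, had a pair of evaluable exons at 100% in every sample.

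Ezh2, the histone methyltransferase of PRC2, had 5 evaluable events. Its exon of 126 bases was at 59.7% in wildtype, 71.8% in Pcgf1KO and 67.4% in Pcgf1KO+ Pcgf1_flag. The 3 other coding exons were at 100% and an exon known only from decay transcripts was at 0% in every sample. Pcgf1, Rybp and Ring1 had no single exon skipping event listed, and events of Rnf2 and Dnmt3b were listed in each sample but none was listed in all 3 under 1 gene name.

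For splicing regulators, 123 events in 54 of 74 genes could be evaluated, and 3 were higher and 3 lower by more than 20 points in Pcgf1KO (4.88%, against 9.56% of all events). Clk1 and Clk4 are kinases of SR proteins, and the 91-base exon shown above for each differed in opposite directions. The Clk1 exon was at 62.7% in wildtype, 83.8% in Pcgf1KO and 67.7% in Pcgf1KO+ Pcgf1_flag, on 44.0, 18.005 and 29.6 FPKM. The Clk4 exon was at 61.3%, 24.1% and 51.9%, on 6.72, 5.18 and 6.32 FPKM. In vM21 the junction that skips the Clk1 exon is found only in decay transcripts, while that of Clk4 is in a coding transcript.

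Tra2b, an activator of exon recognition, had an exon of 276 bases known only from decay transcripts at 0% in wildtype, 35.1% in Pcgf1KO and 17.8% in Pcgf1KO+ Pcgf1_flag. Its total FPKM was 51.4, 94.8 and 133, so the wildtype had both the lowest inclusion and the lowest total. Events of Celf2 and Mbnl1 also passed the limit, at a total of 1.52 to 2.58 FPKM. Celf2 had a coding exon of 144 bases at 100%, 60.7% and 100%, and an exon of decay transcripts at 42.5%, 0% and 0%. The Mbnl1 exon of 95 bases was at 76.2%, 100% and 100%.

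Ptbp1 represses many neural exons. Its 78-base exon was at 82.0% in wildtype, 74.1% in Pcgf1KO and 69.5% in Pcgf1KO+ Pcgf1_flag, on 292, 270.0 and 243 FPKM, differences of less than 20 points. Its 34-base exon was at 100% in every sample, and so was the 34-base exon of its neural relative Ptbp2, on 3.84, 3.33 and 3.78 FPKM. The exon of Foxp1 that could be evaluated, known only from decay transcripts, was at 0% throughout.

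Of 61 pluripotency and lineage genes 15 had events, 32 in all, with 3 higher and 1 lower in Pcgf1KO (12.5%, against 9.56% of all events). For Pcgf1KO+ Pcgf1_flag the share was 12.5% against Pcgf1KO (9.46% of all events) and 21.9% against wildtype (9.96%). The share above that of all events was thus not particular to the knockout comparison. Tcf7l1 and Tcf7l2 encode DNA-binding partners of β-catenin. The 42-base exon of Tcf7l1 was at 30.8% in wildtype, 66.5% in Pcgf1KO and 31.5% in Pcgf1KO+ Pcgf1_flag, on 43.0, 48.5 and 34.5 FPKM, with the knockout alone at the higher value. For Tcf7l2 the 51-base exon was at 20.5%, 72.5% and 83.8%, and an exon of 69 bases at 42.9%, 0% and 0%, on 4.95 to 7.82 FPKM. At both Tcf7l2 exons the wildtype sample stood apart from the other two. Sall4, a zinc finger factor of pluripotent cells, had its exon of 2367 bases at 69.8%, 100% and 100%.

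Of 104 events in other chromatin genes, 6 were higher and 2 lower in Pcgf1KO (7.69%, against 9.56% of all events). Mta1, a subunit of the NuRD complex, had an exon of 51 bases at 74.3% in wildtype, 50.3% in Pcgf1KO and 60.2% in Pcgf1KO+ Pcgf1_flag, on 55.4, 45.4 and 44.4 FPKM. A coding exon of 146 bases in Suv39h2, a histone methyltransferase, was at 19.6%, 100% and 51.7%, and its total was 11.3, 1.90 and 3.93 FPKM. Further events were in Chd2 (2), Kdm5a, Kmt2c and Hdac7, at totals of 1.33 to 6.79 FPKM. The Hdac7 exon of 111 bases was at 100%, 0% and 100%, on 1.84, 1.68 and 1.33 FPKM.

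**Figure D5:**
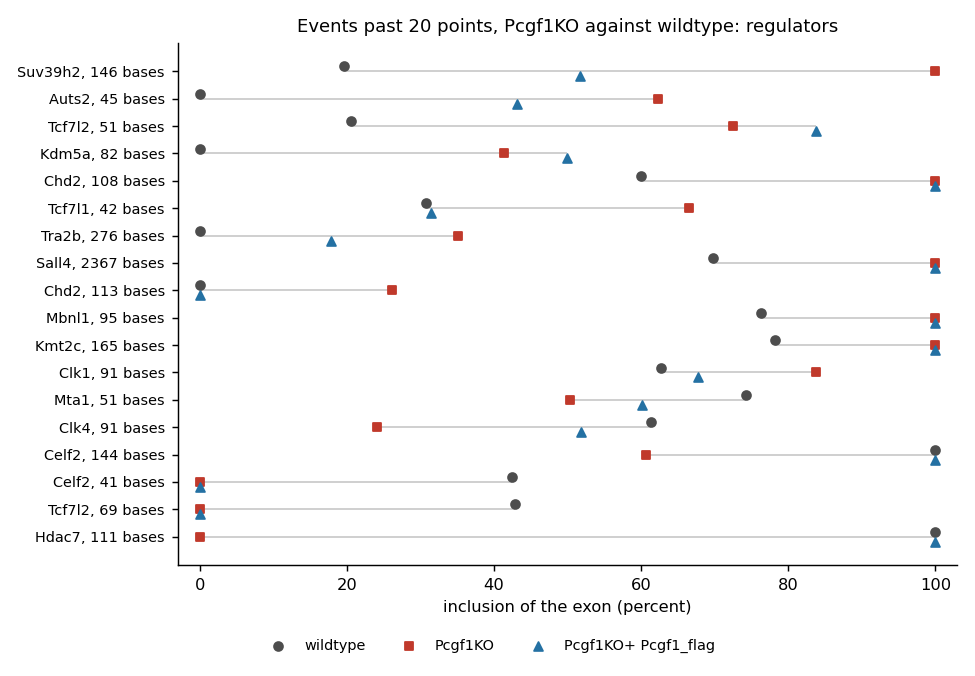
Inclusion in percent (x axis) of named exons of Polycomb, splicing, pluripotency and other chromatin genes that differed by more than 20 points between Pcgf1KO and wildtype, each row being 1 exon (gene and length) and each point 1 sample. Rows are ordered by that difference, from Hdac7 (100% in wildtype, 0% in Pcgf1KO) to Suv39h2 (19.6% and 100%).

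Among 141 events of genes with exons known to differ between epithelial and mesenchymal cells, 7 were higher and 11 lower in Pcgf1KO (12.8%, against 9.56% of all events). For Pcgf1KO+ Pcgf1_flag the share was 11.3% against Pcgf1KO (9.46% of all events) and 13.5% against wildtype (9.96%). Ctnnd1 held 3 of the events past the limit between Pcgf1KO and wildtype. Beside the 18-base exon, its exon of 63 bases was at 39.1% in wildtype, 66.2% in Pcgf1KO and 61.2% in Pcgf1KO+ Pcgf1_flag, on 59.3, 65.5 and 53.6 FPKM. A partly coding exon of 289 bases was at 100%, 71.2% and 54.5%, on 23.2, 65.5 and 32.8 FPKM. In wildtype (23.2 and 0) and in Pcgf1KO+ Pcgf1_flag (17.9 and 14.9) its ON and OFF FPKM were those of the 18-base event. The 289-base and 18-base events are thus not independent, and their 100% in wildtype covers only part of the Ctnnd1 FPKM. Fn1, which encodes fibronectin, had an exon of 273 bases at 100%, 76.5% and 100%, on 110, 75.7 and 74.9 FPKM. Fn1 is also one of the fibroblast markers, whose other 13 measured members summed to 23.4, 12.3 and 24.8 FPKM, and the part of the feeder cells in this difference was not tested.

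Further events of this list lay in both directions. Nf2, the merlin tumour suppressor, had an exon of 45 bases at 100%, 77.1% and 100%, and Mprip, a partner of myosin phosphatase, one of 66 bases at 100%, 64.4% and 100%. The 41-base exon of Plekha1 was at 76.8%, 47.1% and 82.5%. In these 3 exons the knockout sample was the lowest. A longer form of the Plekha1 exon, of 148 bases, was at 45.5%, 21.7% and 0%. Both forms share an end and the same OFF FPKM (4.38, 10.1 and 3.23), so they are not independent. The ON FPKM was 14.5, 9.01 and 15.3 for the form of 41 bases and 3.65, 2.80 and 0 for that of 148. Each inclusion leaves out the ON FPKM of the other form, so 0% for the longer form does not mean that the exon was skipped. Among those higher in the knockout, an exon of 59 bases in Epb41, a protein of the membrane skeleton, was at 0%, 45.6% and 0%. Slk, a kinase, had an exon of 93 bases at 0%, 21.5% and 14.5%, and Golim4, a Golgi membrane protein, one of 84 bases at 77.7%, 100% and 100%.

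Genes with neural exons had 214 events, 8 higher and 11 lower in Pcgf1KO (8.88%, against 9.56% of all events). The 6-base exon of Apbb1, an adaptor of the amyloid precursor protein, was at 0% in wildtype, 31.6% in Pcgf1KO and 17.4% in Pcgf1KO+ Pcgf1_flag. A 27-base exon of Daam1, a formin of Wnt signalling, and a 24-base exon of Clasp2, which binds microtubule ends, were at 0% in Pcgf1KO and Pcgf1KO+ Pcgf1_flag, and at 43.3% and 21.7% in wildtype. Opa1, a GTPase of mitochondrial fusion, had exons of 54 bases at 21.2%, 0% and 24.5% and of 111 bases at 67.3%, 44.2% and 30.7%. Mapt, which encodes tau, had a 93-base exon at 21.1%, 56.0% and 27.3%, and Agrn, which encodes agrin, an exon of 87 bases at 0%, 33.5% and 0%. The direction thus varied among neural exons. For each of the 6 lists the median difference between Pcgf1KO and wildtype was 0 points, as it was over all events, which says nothing of direction since 5340 of the 7227 events were equal in both samples.

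Of the 325 microexons, 173 were at 0% and 29 at 100% in all 3 samples, and 52 were between in all 3. In 9 of these 52 the widest difference between samples was at most 5 points and in 17 it was above 20 points. The 6-base exon of Ap2m1, a subunit of the clathrin adaptor AP-2, was at 73.1% in wildtype, 70.5% in Pcgf1KO and 70.4% in Pcgf1KO+ Pcgf1_flag, on 117, 137 and 119 FPKM. The 9-base exon of Ap1g1, of the adaptor AP-1, was at 48.5%, 47.9% and 46.0%, on 15.6, 16.7 and 16.0 FPKM. The 18-base exon of the annexin gene Anxa6 was at 43.5%, 41.0% and 41.7%.

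For Trappc13, of a vesicle tethering complex, the 18-base exon was at 45.9%, 46.0% and 46.7%, and for Tmed2, a cargo receptor of the early secretory pathway, the 21-base exon was at 30.5%, 31.7% and 29.7%. Flna, which encodes filamin A, had a 24-base exon at 22.6%, 22.8% and 26.1%, on 68.7, 46.5 and 53.9 FPKM. The other 3 of the 9 were in Pitpna, Zfyve27 and Porcn. These exons were picked for their small differences, which are a description.

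The 10 events with the highest total FPKM among exons at 20% to 80% in every sample are given next. This choice leaves out exons that reached an end in any sample, such as that of Eef1b2, so it does not show how far inclusion varied at high levels. Cct8 and Cct7, subunits of the chaperonin of the cytosol, had exons at 71.7%, 70.8% and 71.0% and at 66.9%, 68.6% and 66.2%, on 277 to 449 FPKM. The ribosomal protein genes Rps10 and Rps3 had 50.3%, 46.4% and 55.8% and 45.8%, 46.9% and 51.1%. Exons of 3 hnRNP genes differed by less than 20 points between all samples, with Hnrnpab at 53.3%, 49.3% and 48.5%, Hnrnpa3 at 55.8%, 70.0% and 61.6%, and Hnrnpa2b1 at 64.0%, 52.5% and 52.9%.

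The remaining 3 of these 10 events passed the limit in at least 1 comparison. Klhl13, a ubiquitin ligase adaptor, had an exon known only from non-coding transcripts at 26.5% in wildtype, 52.8% in Pcgf1KO and 52.1% in Pcgf1KO+ Pcgf1_flag, on 515, 456 and 526 FPKM. The Prdx6 (peroxiredoxin) exon was at 70.8%, 50.5% and 63.2%. Cdk1, the mitotic kinase, had an untranslated exon at 41.0%, 39.2% and 60.3%, and its total FPKM was 247, 235 and 163, with the highest inclusion in the sample with the lowest total.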

How the data were processed

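RNA was poly(T)-selected and sequenced as paired reads on an Illumina HiSeq instrument. The authors aligned reads to mm10. Their processing notes name TopHat2 2.0.12, Cufflinks 2.2.1 and HTSeq 0.6.0. They deposited per sample a list of splicing events with FPKM, and which event caller produced them is not given in the sources used here. Cufflinks discards isoforms far below the main isoform of a gene, with a setting that was not stated, which bears on inclusion near 0% and 100%. The lists hold no comparisons between samples. Some gene names had been turned into dates and were kept as they stand.

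ON rows that repeated an exon pattern were counted once. Digits of many OFF patterns were lost in the files, so OFF rows were counted once where pattern and FPKM repeated, and the remaining rows of an event were summed. Exons and skipping junctions were looked up in GENCODE vM21 (7198 of 7227 exons had an exact match), with Python 3.11.15, pandas 2.3.3, numpy 2.4.6 and matplotlib 3.10.9. A kept event had a total FPKM of at least 1 in each of 3 samples, and a call needed a difference of over 20 points, with no test. FPKM carry no counts, so no interval was computed. The script that makes the calls was tested on simulated data with planted differences. The events and lists were chosen with earlier results of these data known.

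The exons named are the 10 widest differences in each direction for Pcgf1KO against wildtype and the 5 widest in each direction for both other comparisons (total FPKM of at least 5), list events past the limit (some are not reported here), events of Pcgf1, Kdm2b, Bcor, Rybp, Ring1, Rnf2, Ptbp1, Ptbp2, Foxp1, Ezh2 and Dnmt3b, and the 10 highest events at 20% to 80% in every sample. Microexons with small differences, Sycp1 and Syne2 were added after their values were seen. In all, 12 alternatives were computed, 2 of them added after seeing the data.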

Additional observations from a re-analysis of the deposited data

Results flagged for a closer look

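Joining of Pcgf1 exon 1 to exon 4, an event that leaves out 2 exons and so is no single exon skip, was listed with 5.88 FPKM in Pcgf1KO and was not listed in wildtype or Pcgf1KO+ Pcgf1_flag.

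Single exon skipping events whose coordinates were listed in Pcgf1KO alone, and which entered no comparison, numbered 394, of which 133 had both ON and OFF at 1 FPKM or more. The corresponding numbers were 384 and 129 in wildtype and 453 and 135 in Pcgf1KO+ Pcgf1_flag, so each sample had about as many events of its own.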

How the results depend on the processing

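The counts of exons past the limit are given in the order Pcgf1KO against wildtype, Pcgf1KO+ Pcgf1_flag against Pcgf1KO, Pcgf1KO+ Pcgf1_flag against wildtype and, for Pcgf1KO against wildtype, events of the gene lists, which were 691, 684, 720 and 54. They moved by more than 1.5 times to 1212, 1224 and 1266 without the minimum of 1 FPKM (lists 66), to 311, 313, 315 and 28 with a minimum of 5 FPKM, to 1209, 1176, 1167 and 104 with a limit of 10 points, to 365, 356, 375 and 29 with one of 30 points, to 422, 435, 438 and 35 with a pseudocount of 1 FPKM, and to 151, 154, 144 and 14 among events with ON and OFF above 0 in every sample. Under the other 6 alternatives (a pseudocount of 0.1 FPKM, types without a leading X, 1 row of each kind per event, loci with 1 gene name, matching by coordinates alone, and counting every row; the last 2 chosen after seeing the data) all 4 counts stayed within 1.5 times. The share of exons with a length divisible by 3, 48.3%, was 64.8% among events with ON and OFF above 0 in every sample. The 93 differences of named exons gave 965 values under the alternatives that kept the exon. Of these, 46 were within the limit, 25 of them under the limit of 30 points and 19 with a pseudocount of 1 FPKM. None had the opposite sign. Most alternatives changed only the limit or which events were kept, so the difference itself could not change there. The exons were also chosen for passing the limit or for wide differences, so these counts do not measure how stable a difference is. No paired analysis was possible because each genotype has 1 sample, and for the same reason no sample could be left out. Depth and the spread between cultures are unknown, so a difference in a single exon cannot be set against them.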
